A study of Homo sapiens with 9 samples.

Results

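The positive transcription elongation factor b (P-TEFb), the 7SK ribonucleoprotein that holds it inactive and the super elongation complex that carries it to genes were followed through 9 genes. These were CDK9, CCNT1 and CCNT2 (P-TEFb), HEXIM1, LARP7, MEPCE and RN7SK (the 7SK particle), and AFF4 and ELL2 (the super elongation complex). They were chosen by gene symbol, and all 9 were found among the 56252 features of each library. RNA was measured in A549, a human lung cancer cell line, 48 h after transfection with a scrambled siRNA, siCyclin K#1 or siCyclin K#2. Each group had 3 libraries, described by the submitters as independent samples, and no other genotype or agent is given for any group. The study asked how Cyclin K acts in lung cancer growth and radioresistance, and sequenced RNA to see how its loss changes expression. Its authors describe Cyclin K as a partner of the transcriptional kinases CDK9, CDK12 and CDK13.

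RNA polymerase II pauses shortly after it starts on many genes, and P-TEFb, a dimer of the kinase CDK9 with cyclin T1 or T2, releases it by phosphorylating the polymerase and the pausing factors. A large share of P-TEFb is kept inactive by HEXIM proteins bound to the 7SK RNA, whose ends are protected by LARP7 and by the capping enzyme MEPCE. Active P-TEFb is brought to genes by bromodomain proteins and by the super elongation complex, in which AFF4 is the scaffold and ELL2 an elongation factor. HEXIM1 is known for its induction by hexamethylene bisacetamide and for being transcribed in response to P-TEFb release.

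Values are FPKM, fragments per kilobase of transcript, scaled to the mapped fragments of the library, so levels can be compared between genes per length. The steps of the low values gave 31333749 to 33767961 reads per library. CCNK, the targeted gene, was at 6.90, 7.06 and 7.10 FPKM in the scrambled libraries, at 0.891, 0.816 and 0.72 FPKM with siCyclin K#1 and at 0.809, 0.92 and 0.802 FPKM with siCyclin K#2. It was reduced to 11.5% and 12.0% of the scrambled mean. Replicates of a group correlated at 0.978 to 0.986 over 6295 genes, so no library stood apart as a whole. The A549 label was checked against markers: KRT8, KRT18, ALDH1A1 and AKR1B10 were at 49.7 FPKM or more in every library, while EPCAM was at 0 to 0.279 FPKM and CDH1 at 1.19 to 4.6 FPKM. Of the leukocyte markers PTPRC was at 0 to 0.00685 FPKM and CD14 at 0.573 to 1.02 FPKM, and the 3 endothelial markers summed to 0.0445 FPKM or less. The erythroid marker HBA1 was at 0.327 to 0.814 FPKM with siCyclin K#1, against 0 to 0.0709 FPKM in the scrambled libraries and 0 to 0.108 FPKM with siCyclin K#2. The summed fibroblast markers DCN, LUM and PDGFRB (3 of 3 listed) were at 1.81 to 2.91 FPKM with siCyclin K#1, against 0.432 to 0.506 FPKM in the scrambled libraries and 0.401 to 0.448 FPKM with siCyclin K#2. LUM reached 2.7 FPKM while DCN stayed at 0.0919 FPKM or less and PDGFRB at 0.136 FPKM or less, and the part of these markers in the results was not tested.

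With both siRNAs together, CDK9 and LARP7 rose while CCNT1 and ELL2 fell. A gene was called at an adjusted p under 0.05 with limma, a linear model fitted to log2(FPKM + 0.1) of all 21048 tested genes, among which all 9 members were. In that comparison 17.0% of tested genes were called higher and 11.5% lower, against 2 and 2 of the 9 members. With siCyclin K#1, HEXIM1, CDK9 and LARP7 were called higher and CCNT1 and ELL2 lower, beside 26.8% and 18.1% of tested genes. With median-ratio rescaling the higher and lower calls with this siRNA were nearly even, at 4663 and 4660 genes. With siCyclin K#2, CDK9, LARP7 and AFF4 were called higher and CCNT1 and ELL2 lower, beside 19.8% and 15.2% of tested genes. Both comparisons used the same scrambled libraries. By the stricter rule of the study's methods, a change of more than 3-fold at p under 0.01 before adjustment, 0 members were called with both siRNAs, where 2.29% of tested genes were. By that rule HEXIM1 was called with siCyclin K#1 (4.67% of tested genes) and 0 members with siCyclin K#2 (1.94% of tested genes). The p used for the rule here was that of limma. The study's methods name StringTie for its calls, so these counts are not those of the study. In 4 of the 9 members the scrambled and siCyclin K libraries did not overlap, which held for 32.6% of tested genes. The median log2 difference with both siRNAs was 0.12 over the members and 0.06 over all tested genes. In bulk RNA, a lower level per cell and a smaller share of expressing cells cannot be told apart.

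**Figure D1:**
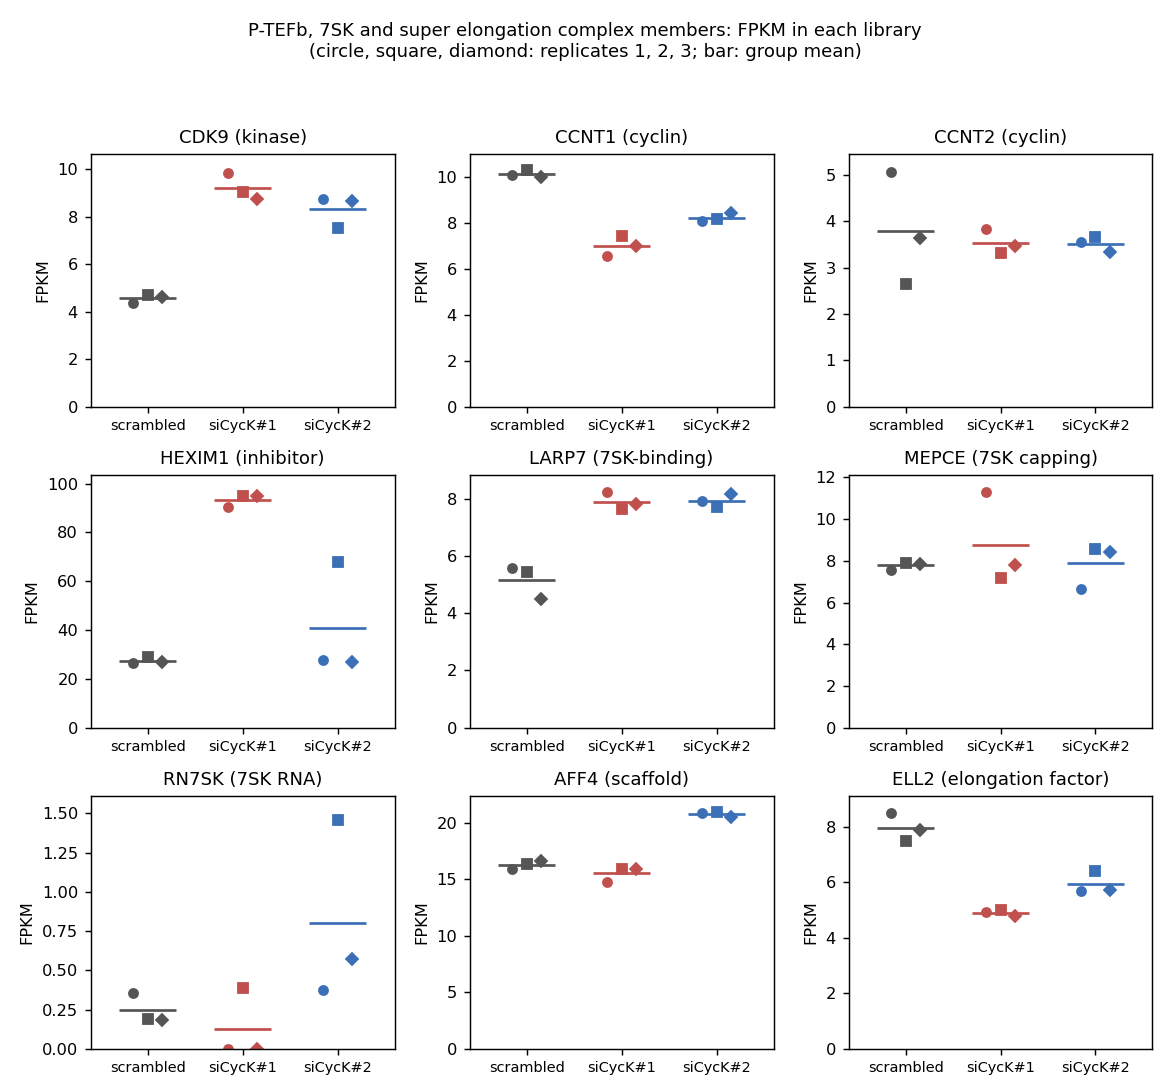
FPKM (linear axis from 0, a separate scale in each panel) of each member in the 3 scrambled, 3 siCyclin K#1 and 3 siCyclin K#2 libraries, with circle, square and diamond for replicates 1, 2 and 3 and a bar for the group mean. CDK9 and LARP7 lie above and CCNT1 and ELL2 below all scrambled libraries with both siRNAs, and HEXIM1 with siCyclin K#2 is near the scrambled level in 2 libraries and at 68.0 FPKM in replicate 2.

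CDK9 RNA, which encodes the catalytic subunit, rose about as much with either siRNA. It was at 4.38, 4.70 and 4.61 FPKM in the scrambled libraries, at 9.86, 9.04 and 8.74 FPKM with siCyclin K#1 and at 8.74, 7.54 and 8.68 FPKM with siCyclin K#2. All 6 siCyclin K libraries were above all scrambled ones. The log2 difference was 1.00 with siCyclin K#1 (SE 0.07, adjusted p = 7.2e-06) and 0.85 with siCyclin K#2 (SE 0.07, adjusted p = 3.3e-05). Between the siRNAs, CDK9 differed by 0.15 (95% interval -0.02 to 0.31, adjusted p = 0.18). The gene (ENSG00000136807) lies on the plus strand of chromosome 9 from 127785679 to 127790787 in GRCh38, and its longest annotated transcript has 2463 nucleotides in 7 exons. MIR3960 and MIR2861 lie within it on the same strand, so their reads cannot be told apart from those of CDK9.

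The cyclin partners did not move with the kinase. CCNT1, encoding cyclin T1, was at 10.1, 10.3 and 10.0 FPKM in the scrambled libraries, at 6.59, 7.45 and 7.01 FPKM with siCyclin K#1 and at 8.08, 8.19 and 8.44 FPKM with siCyclin K#2. All 3 groups were apart from each other, with siCyclin K#1 lowest. CCNT1 fell by 0.53 on the log2 scale with siCyclin K#1 (SE 0.05, adjusted p = 4.6e-05) and by 0.30 with siCyclin K#2 (SE 0.05, adjusted p = 0.0022), to 69.2% and 81.3% of the scrambled mean. CCNT2, encoding cyclin T2, was at 5.07, 2.65 and 3.64 FPKM in the scrambled libraries, at 3.83, 3.31 and 3.47 FPKM with siCyclin K#1 and at 3.56, 3.66 and 3.34 FPKM with siCyclin K#2. The scrambled libraries alone spanned a range wider than that of all siCyclin K libraries. CCNT2 differed by -0.05 with both siRNAs (95% interval -0.42 to 0.32, adjusted p = 0.85), and by 0.18 without scrambled replicate 1. CCNT2 (chromosome 2, plus strand, 134918235 to 134959342) is overlapped by CCNT2-AS1 on the opposite strand, and whether the counting used strand is not given in the sources used here.

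The promoter windows of CDK9, CCNT1 and HEXIM1 are shown because these genes rose with both siRNAs, fell with both, and rose with siCyclin K#1. Each runs from 250 bases before to 50 after a RefSeq start (GRCh38.p14), 5′ to 3′ on the gene's strand. Capitals mark the TATA box letters TATAAA, the CCAAT box letters CCAAT and the GC box letters GGGCGG, each searched on both strands (their reverse complements are in capitals too). Of 35116 windows of this length, 11.5% hold the first, 34.6% the second and 45% the last.
CDK9 promoter, plus strand, chr9:127785784-127786083: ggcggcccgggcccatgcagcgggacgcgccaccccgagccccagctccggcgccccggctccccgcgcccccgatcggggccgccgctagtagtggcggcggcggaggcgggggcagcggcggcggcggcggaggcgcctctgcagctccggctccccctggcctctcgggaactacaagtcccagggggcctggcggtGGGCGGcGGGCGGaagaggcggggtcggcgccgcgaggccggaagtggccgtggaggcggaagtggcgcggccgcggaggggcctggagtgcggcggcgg
CCNT1 promoter, minus strand, chr12:48716658-48716957: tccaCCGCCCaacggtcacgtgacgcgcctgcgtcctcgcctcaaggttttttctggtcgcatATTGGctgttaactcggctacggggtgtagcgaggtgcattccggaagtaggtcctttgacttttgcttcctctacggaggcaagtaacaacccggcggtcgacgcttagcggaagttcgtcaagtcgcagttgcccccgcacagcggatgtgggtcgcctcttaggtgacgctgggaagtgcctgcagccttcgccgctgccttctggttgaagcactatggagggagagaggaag
HEXIM1 promoter, plus strand, chr17:45148225-45148524: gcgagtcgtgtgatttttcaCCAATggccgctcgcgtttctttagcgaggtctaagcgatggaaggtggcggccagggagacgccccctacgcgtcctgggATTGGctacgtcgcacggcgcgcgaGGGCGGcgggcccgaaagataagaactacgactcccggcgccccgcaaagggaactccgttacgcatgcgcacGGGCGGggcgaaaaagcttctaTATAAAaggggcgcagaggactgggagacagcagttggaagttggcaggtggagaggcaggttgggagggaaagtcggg
The CDK9 window is 82.0% G and C, against a median of 58.7% over all windows, and holds the GC box letters 2 times and neither other motif. The CCNT1 window is 59.0% G and C and holds the CCAAT box and the GC box letters 1 time each, both on the opposite strand. The HEXIM1 window holds the TATA box letters 1 time, the CCAAT box letters 1 time on each strand and the GC box letters 2 times. Windows were found for 7 of the 9 members, and the TATA box letters were in HEXIM1 alone among the 11 windows of these genes. CCNT1 also has a window at a second start further downstream. These matches describe letters only.

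The ratio of kinase to cyclin RNA was higher in every siCyclin K library than in any scrambled one. The ratio of CDK9 to CCNT1 FPKM was 0.435, 0.457 and 0.461 without knockdown, was 1.5, 1.21 and 1.25 under siCyclin K#1 and lay at 1.08, 0.92 and 1.03 under siCyclin K#2. CDK9 thus had less RNA per length than CCNT1 in all scrambled libraries and more in 5 of the 6 siCyclin K libraries. This ratio was chosen after its values were seen and was not tested. The ratio of CCNT1 to CCNT2 was 1.99, 3.88 and 2.75 without knockdown, 1.72 to 2.25 under siCyclin K#1 and 2.24 to 2.53 under siCyclin K#2. Its log2 mean differed by -0.36 between siCyclin K libraries and scrambled ones (two-sided exact permutation test, p = 0.155, adjusted over 2 ratios 0.31, smallest possible p = 0.0119, n = 6 and 3). Without scrambled replicate 1 it differed by -0.59 (exact p = 0.0357, the smallest that 6 and 2 libraries allow), and without scrambled replicate 2 by -0.12 (exact p = 0.536).

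**Figure D2:**
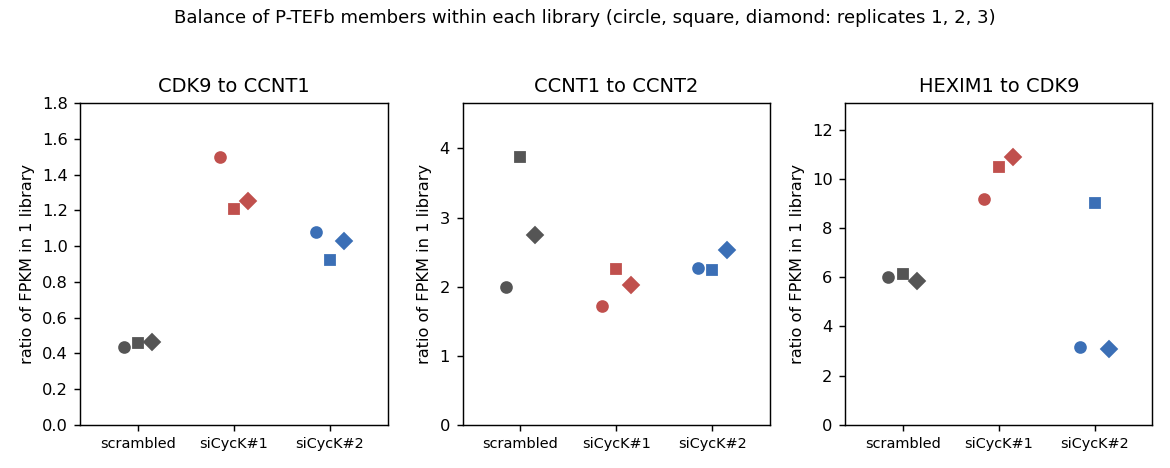
Ratio of FPKM between members within each library (linear axes from 0), with circle, square and diamond for replicates 1, 2 and 3. CDK9 to CCNT1 was 0.435 to 0.461 in the scrambled libraries and 0.92 or more in the siCyclin K libraries, and HEXIM1 to CDK9 with siCyclin K#2 was 3.16, 9.03 and 3.1.

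Among the 7SK particle genes, HEXIM1 had the largest change of the members above the floor. HEXIM1, the protein that inhibits CDK9 when bound to 7SK, was at 26.4, 28.8 and 27.0 FPKM in the scrambled libraries and at 90.4, 94.9 and 95.1 FPKM with siCyclin K#1. With siCyclin K#2 it was at 27.6, 68.0 and 26.9 FPKM, so that 2 libraries lay within the scrambled range and replicate 2 lay between it and siCyclin K#1. The log2 difference with siCyclin K#1 was 1.77 (SE 0.30, adjusted p = 0.0014), a ratio of means of 3.41. With siCyclin K#2 it was 0.43 (SE 0.30, adjusted p = 0.33), and -0.01 without replicate 2. With both siRNAs it was 1.10 (SE 0.45, adjusted p = 0.096), and the adjusted p was 0.034 and 0.03 without siCyclin K#2 replicate 1 or 3. The direct difference, siCyclin K#1 minus siCyclin K#2, was 1.33 (SE 0.30, 95% interval 0.64 to 2.03, adjusted p = 0.011).

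HEXIM1 (ENSG00000186834) has 1 exon of 3600 nucleotides on the plus strand of chromosome 17, from 45148502 to 45152101, with AC138150.1 on the opposite strand. Its level equals 3086 to 11283 reads per library if all lay on that transcript. The part of counting error in the gap of siCyclin K#2 replicate 2 was not tested. That library correlated at 0.982 with both other siCyclin K#2 libraries over 6295 genes. The value was deposited under a StringTie locus, a transcript model assembled from the reads, as were those of MEPCE and RN7SK. Among entries with a mean of at least 5 FPKM, 9.67% of 1076 StringTie loci had in some group 1 library over 1.5-fold from the other 2, which lay close together. The same held for 6.46% of 5220 entries under reference gene names, and the part of the assembly in the HEXIM1 value was not tested.

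The ratio of HEXIM1 to CDK9, inhibitor to kinase, was 6.03, 6.13 and 5.86 without knockdown, 9.17, 10.5 and 10.9 under siCyclin K#1 and 3.16, 9.03 and 3.10 under siCyclin K#2. It was above the scrambled libraries with siCyclin K#1 and below them in 2 of 3 libraries with siCyclin K#2. Its log2 mean with both siRNAs differed by 0.18 (exact two-sided permutation test, p = 0.81, adjusted 0.81, n = 6 and 3).

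LARP7, which binds the 3′ end of 7SK and keeps it stable, rose with both siRNAs. It was at 5.59, 5.44 and 4.48 FPKM in the scrambled libraries, at 8.21, 7.63 and 7.82 FPKM with siCyclin K#1 and at 7.90, 7.71 and 8.16 FPKM with siCyclin K#2. All siCyclin K libraries were above all scrambled ones, and those of the siRNAs overlapped. The log2 difference was 0.60 (SE 0.08, adjusted p = 0.00033) with siCyclin K#1 and 0.61 (SE 0.08, adjusted p = 0.00047) with siCyclin K#2. The direct difference was -0.01 (95% interval -0.19 to 0.18, adjusted p = 0.97). LARP7 (chromosome 4, plus strand, 112636964 to 112657592) shares its span with ZGRF1 and 6 shorter genes on the opposite strand, so without strand their reads cannot be told apart.

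MEPCE, which caps the 5′ end of 7SK, was at 7.57, 7.91 and 7.87 FPKM in the scrambled libraries, at 11.3, 7.20 and 7.81 FPKM with siCyclin K#1 and at 6.63, 8.59 and 8.42 FPKM with siCyclin K#2. Only siCyclin K#1 replicate 1 lay clearly above the rest. It differed by 0.08 with both siRNAs (95% interval -0.25 to 0.40, adjusted p = 0.74). MEPCE lies on chromosome 7 (plus strand, 100428790 to 100434126) and overlaps ZCWPW1 on the opposite strand. HEXIM2, a paralog of HEXIM1 that also binds 7SK, is no member and is named here after its values were seen. It was at 2.06 ± 0.158 FPKM (SD, n = 3) in the scrambled libraries, 3.58 ± 0.12 with siCyclin K#1 and 2.04 ± 0.571 with siCyclin K#2. HEXIM2 rose by 0.77 on the log2 scale with siCyclin K#1 (adjusted p = 0.0053) and differed by 0.81 between the siRNAs (adjusted p = 0.0067).

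The 7SK RNA itself was too scarce in these libraries to be compared. RN7SK is transcribed from chromosome 6 (plus strand, 52995620 to 52995950), and GENCODE 29 annotates it under 2 records that share 1 feature of the files. The first 100 of its 331 nucleotides are shown because the 5′ hairpin they include is where HEXIM1 binds. Capitals mark every GATC, found at positions 13, 42 and 64 counted from the 5′ end. HEXIM1 binds repeats of these letters in the hairpin, and a search by letters does not tell which matches are bound.
RN7SK, plus strand, chr6:52995620-52995719: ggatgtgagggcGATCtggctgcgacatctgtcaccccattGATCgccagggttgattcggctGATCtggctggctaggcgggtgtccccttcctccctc
RN7SK was at 0.358, 0.19 and 0.186 FPKM in the scrambled libraries, at 0, 0.386 and 0 FPKM with siCyclin K#1 and at 0.376, 1.46 and 0.569 FPKM with siCyclin K#2. These values equal 4, 2 and 2 reads, then 0, 4 and 0 reads, then 4, 16 and 6 reads, beside a floor of 3 reads per library that a count of 0 allows. All these counts were even, and the study's methods give paired-end sequencing, so both reads of a pair may have been counted. Independent fragments may then be fewer than these reads, and the floor of 3 takes each read as independent. Intervals and floors of this kind cover counting error only. In total 95 features carried the names of 7SK pseudogenes, and reads of near-identical copies could have been split among them. How RNA was selected for the libraries is not given in the sources used here, and 7SK has no poly(A) tail.

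AFF4, the scaffold of the super elongation complex, was higher with siCyclin K#2 and not with siCyclin K#1. It was at 15.9, 16.4 and 16.6 FPKM in the scrambled libraries, at 14.8, 15.9 and 15.9 FPKM with siCyclin K#1 and at 20.9, 21.0 and 20.5 FPKM with siCyclin K#2. All siCyclin K#2 libraries were above all others. The log2 difference was 0.35 with siCyclin K#2 (SE 0.04, adjusted p = 0.00017) and -0.07 with siCyclin K#1 (SE 0.04, 95% interval -0.16 to 0.02, adjusted p = 0.21). With median-ratio rescaling of the libraries, the value with siCyclin K#1 was -0.19 and passed the test (adjusted p = 0.0051). That rescaling moved the median of all tested genes with siCyclin K#1 from 0.102 to 0.001, so every difference with this siRNA is to be read against it. The direct difference of AFF4 between the siRNAs was -0.42 (SE 0.04, adjusted p = 9.0e-05).

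ELL2, the elongation factor of this complex, fell with both siRNAs. It was at 8.49, 7.50 and 7.90 FPKM in the scrambled libraries, at 4.93, 5.00 and 4.78 FPKM with siCyclin K#1 and at 5.69, 6.41 and 5.73 FPKM with siCyclin K#2. The 3 groups did not overlap. ELL2 fell by 0.69 on the log2 scale (SE 0.07, adjusted p = 3.9e-05) with siCyclin K#1 and by 0.42 (SE 0.07, adjusted p = 0.0013) with siCyclin K#2, to 61.5% and 74.6% of the scrambled mean. AFF4 (chromosome 5, minus strand, 132875379 to 132963634, longest transcript 9552 nucleotides in 21 exons) and ELL2 (chromosome 5, minus strand, 95885098 to 95962071, 6046 nucleotides in 12 exons) both carry overlapping genes on the opposite strand.

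Of 10 genes listed for the super elongation complex, AFF4 and ELL2 included, 9 were tested, since AFF3 did not pass the filter on low values. With siCyclin K#1, EAF2 was higher and ELL2 and EAF1 were lower, beside 26.8% and 18.1% of all tested genes. With siCyclin K#2, AFF4, ELL and EAF2 were higher and ELL2 was lower, beside 19.8% and 15.2% of all tested genes. The median log2 difference of the list was 0.02 with siCyclin K#1 (0.10 over all tested genes) and 0.27 with siCyclin K#2 (0.01 over all tested genes). EAF2, a partner of ELL proteins, rose from 2.15 ± 0.221 to 3.13 ± 0.348 and 4.37 ± 0.474 FPKM (SD, n = 3 each), a log2 difference of 0.75 with both siRNAs (adjusted p = 0.0082). EAF1, its paralog, named after its values were seen, was at 12.9 ± 0.509 FPKM in the scrambled libraries, 6.1 ± 0.114 with siCyclin K#1 and 11.9 ± 0.728 with siCyclin K#2. EAF1 fell by 1.07 on the log2 scale with siCyclin K#1 (adjusted p = 9.0e-07) and differed by -0.95 between the siRNAs (adjusted p = 5.7e-06). ELL, the paralog of ELL2, is named after its values were seen. It was at 2.93, 3.32 and 3.48 FPKM on average in the scrambled, siCyclin K#1 and siCyclin K#2 groups. Its log2 difference was 0.24 with siCyclin K#2 (adjusted p = 0.046) and 0.21 with both siRNAs (adjusted p = 0.11).

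Per length, HEXIM1 had the highest mean of the members in every group (27.4, 93.5 and 40.9 FPKM), followed by AFF4 (16.3, 15.5 and 20.8 FPKM). RN7SK had the lowest. In the scrambled libraries CCNT1 (10.1 FPKM) came next, and ELL2 and MEPCE, then LARP7, CDK9 and CCNT2 followed. Ranges overlapped between ELL2 and MEPCE, between LARP7 and CDK9, and between CDK9 and CCNT2, so their order is within the spread. With siCyclin K#1 and siCyclin K#2, CDK9 followed AFF4 in place of CCNT1, and its range overlapped that of MEPCE in the first and that of CCNT1 in the second.

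The siRNAs were compared directly, because an effect called with either is no test of a difference between them. Of the 9 members, 1 was higher (HEXIM1) and 4 were lower under siCyclin K#1 than under its counterpart (CCNT1, ELL2, AFF4 and RN7SK), where 17.1% and 12.3% of tested genes were. By the rule of a fold over 3, only RN7SK was called, beside 1.53% of tested genes, and it rests on the few reads given above. CCNT1 differed by -0.23 (SE 0.05, adjusted p = 0.01) and ELL2 by -0.27 (SE 0.07, adjusted p = 0.015). Both therefore fell further with siCyclin K#1, while CCNK itself differed by -0.06 between the siRNAs (95% interval -0.28 to 0.17, adjusted p = 0.73). Of all calls in this comparison 58.1% were higher with siCyclin K#1, against 47.1% with median-ratio rescaling.

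**Figure D3:**
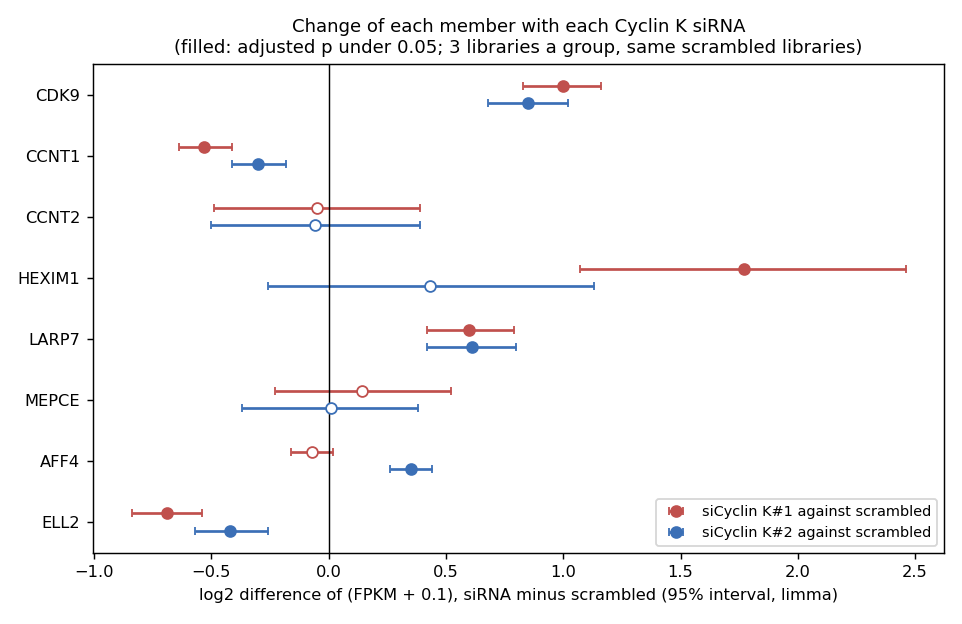
Log2 difference of (FPKM + 0.1) between each siRNA and the same 3 scrambled libraries for 8 members (horizontal axis, log2 units), with 95% intervals from limma and filled points where the adjusted p was under 0.05. RN7SK is left out because it rests on 0 to 16 reads. Points of CDK9 and LARP7 lie right of 0 and those of CCNT1 and ELL2 left of it for both siRNAs, and AFF4 and HEXIM1 differ between them.

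Other genes of the pathway were taken from lists of P-TEFb partners, pausing factors, related kinases and genes often used as readouts of elongation. Of 13 factors that recruit or release P-TEFb, 3 rose and 4 fell with both siRNAs, beside 17.0% and 11.5% of all tested genes. The median log2 difference was -0.08 over the list and 0.06 over all tested genes. BRD3, a bromodomain protein of the family that brings P-TEFb to acetylated chromatin, rose from 4.34 ± 0.168 to 8.33 ± 0.443 and 8.43 ± 0.283 FPKM (SD, n = 3 each, log2 difference 0.93, adjusted p = 1.1e-05). HNRNPA1, an RNA-binding protein that takes 7SK when P-TEFb leaves it, rose by 0.42 (adjusted p = 0.00014). DDX21, a helicase that releases P-TEFb from 7SK, fell by 0.63 on the log2 scale (adjusted p = 4.5e-05). SRSF2, a splicing factor that binds 7SK, the phosphatase subunit PPP1CA and SYNCRIP fell by 0.37, 0.25 and 0.17, with adjusted p of 0.028, 0.033 and 0.038. SRSF2 differed by -0.30 between the siRNAs (adjusted p = 0.011). JMJD6, a Jumonji-domain enzyme named after its values were seen, was at 8.47, 5.24 and 11 FPKM on average in the scrambled, siCyclin K#1 and siCyclin K#2 groups. It was called in opposite directions with the 2 siRNAs, and the difference between them was -1.06 (adjusted p = 7.9e-06).

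Of 6 pausing factors, 2 rose, 1 fell and 3 did not pass the test with both siRNAs, beside 17.0% and 11.5% of all tested genes, and the median log2 difference was 0.08 over the list and 0.06 over all tested genes. NELFB, a subunit of the negative elongation factor that holds the paused polymerase, rose from 10.8 ± 0.425 to 21.3 ± 0.5 and 25.3 ± 1.49 FPKM (SD, n = 3 each, log2 difference 1.10, adjusted p = 2.3e-05). NELFA rose by 0.56 (adjusted p = 0.0015). NELFE fell by 0.52 on the log2 scale (adjusted p = 0.0079), on a feature it shares with MIR1236. The little elongation complex serves small nuclear RNA genes, and 4 of its genes were listed. USPL1 was higher with siCyclin K#1 (0.31, adjusted p = 0.013), where 26.8% of all tested genes were. ZC3H8 was lower with siCyclin K#2 (-0.61, adjusted p = 0.012), where 15.2% of all tested genes were. Both are named after their values were seen, and no other of the 4 was called with either siRNA.

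Of 13 other transcriptional kinases and cyclins, 10 were tested, and MNAT1, CDK11A and CDK11B were not analysed here. With both siRNAs 4 rose and 2 fell, the targeted CCNK among them, beside 17.0% and 11.5% of all tested genes. The median log2 difference was 0.09 over the list and 0.06 over all tested genes. CDK12, a kinase partner of Cyclin K, rose from 7.91 ± 0.51 to 19.7 ± 0.229 and 18.4 ± 2.14 FPKM (SD, n = 3 each). Its log2 difference was 1.26 (adjusted p = 6.9e-06), against 0.92 for CDK9 (SE 0.09, adjusted p = 5.1e-05). The Mediator kinases CDK19 and CDK8 rose by 1.38 (adjusted p = 0.00018) and 0.59 (adjusted p = 0.00017), and CDK7 of TFIIH by 0.41 (adjusted p = 0.013). CCNH, the cyclin of CDK7, fell by 0.23 on the log2 scale (adjusted p = 0.042). CDK7 and CCNH thus moved in opposite directions, as CDK9 and CCNT1 did, pairs set side by side after their values were seen. CCNC, the cyclin of CDK8 and CDK19, also named after its values were seen, was not called (-0.20, adjusted p = 0.61). CCNT2, the other cyclin of CDK9, was not called either (-0.05, adjusted p = 0.85).

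Among 12 tested immediate early genes, which are short and depend on pause release, 4 rose and 1 fell with both siRNAs, beside 17.0% and 11.5% of all tested genes. The median log2 difference was 0.51 over the list and 0.06 over all tested genes. It lay between EGR1 (0.48, limma adjusted p = 0.056) and MYC (0.54, limma adjusted p = 0.74). Neither was called, and both are named after their values were seen. In the scrambled libraries EGR1 was low, at 0.512 FPKM on average, and MYC was at 6.71 ± 8.69 FPKM (SD, n = 3). DUSP1, a phosphatase of MAP kinases, rose from 27.6 ± 2.16 to 51.1 ± 4.5 and 48.3 ± 0.717 FPKM (SD, n = 3 each, adjusted p = 3.2e-05). ATF3 rose by 1.33 (adjusted p = 0.013), FOS by 0.77 (adjusted p = 0.035) and JUN by 0.69 (adjusted p = 0.022). With siCyclin K#1 and siCyclin K#2 taken apart, ATF3 rose by 1.75 and 0.91 and JUN by 0.39 and 0.99. The direct difference was 0.84 for ATF3 (adjusted p = 0.053) and -0.60 for JUN (adjusted p = 0.0018). ATF3 and FOS were low, at 0.811 and 0.505 FPKM on average in the scrambled libraries. FOS did not pass the test with siCyclin K#2 alone (0.54, adjusted p = 0.1). FOSL1, a partner of JUN, fell from 115.0 ± 12.2 to 17.5 ± 0.999 and 66.8 ± 6.74 FPKM (SD, n = 3 each, adjusted p = 0.037 with both siRNAs together). Its log2 difference was -2.71 with siCyclin K#1 (adjusted p = 1.1e-07) and -0.78 with siCyclin K#2 (adjusted p = 0.00025). The direct difference of FOSL1 between the siRNAs was -1.93 (adjusted p = 2.4e-06). Of 6 tested heat shock genes 3 rose with both siRNAs, beside 17.0% of all tested genes: the chaperones DNAJB1, HSPB1 and HSPA8, by 0.63, 0.39 and 0.19 (adjusted p = 0.01, 0.018 and 0.018). DNAJB1 rose by 0.42 with siCyclin K#1 and 0.85 with siCyclin K#2, and the siRNAs differed by -0.42 (adjusted p = 0.015). HSP90AA1, named after its values were seen, was at 269.0, 222.0 and 440.0 FPKM on average in the scrambled, siCyclin K#1 and siCyclin K#2 groups.

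**Figure D4:**
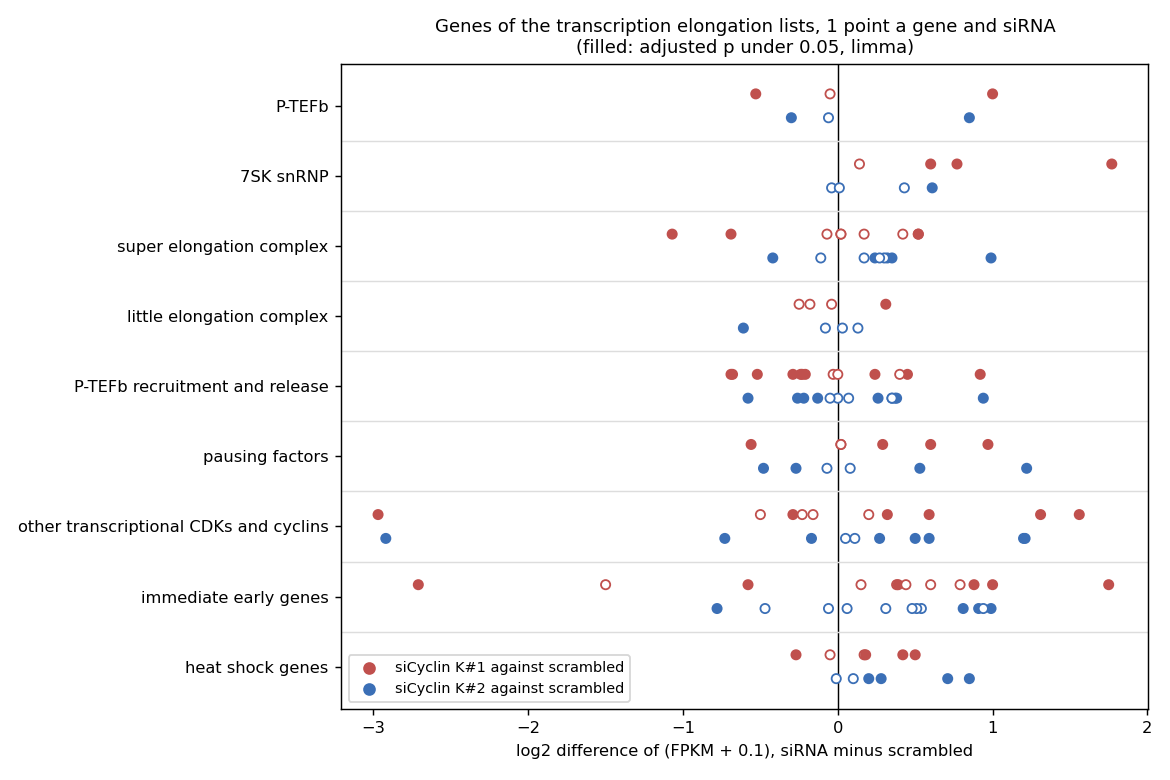
Log2 difference of (FPKM + 0.1) of each tested gene of the 9 lists with siCyclin K#1 (red) and siCyclin K#2 (blue), each against the same scrambled libraries, with filled points where the limma adjusted p was under 0.05. RN7SK is left out, and in every list points lie on both sides of 0, with CCNK furthest left at -2.97 and -2.92.

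Genes most like the members with the largest differences were found by the summed distance in the log2 differences of both siRNAs, among 11243 genes with a mean of at least 1 FPKM. For CDK9 these were CACTIN, IFT27 and EEA1 (0.99 to 1.00 with siCyclin K#1 and 0.83 to 0.87 with siCyclin K#2). For HEXIM1 they were GLI1, SYCP2 and AL450326.1 (1.73 to 1.84 with siCyclin K#1 and 0.42 to 0.49 with siCyclin K#2). The siCyclin K#2 difference of HEXIM1 to which they were matched was 0.43, and -0.01 without siCyclin K#2 replicate 2. SYCP2 and AL450326.1 were at 0.721 and 0.607 FPKM on average in the scrambled libraries. EEA1 went from 5.18 to 10.4 and 9.58 FPKM on average, and GLI1 from 1.17 to 4.37 and 1.6 FPKM.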

How the data were processed

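RNA of 9 A549 libraries, 3 each with scrambled siRNA, siCyclin K#1 and siCyclin K#2, was sequenced on an Illumina system, and groups were taken from the sample labels. The authors deposited values in FPKM, computed with StringTie 1.3.3b per the labels. The aligner, RNA selection and strand setting are not given in the sources used here. GENCODE 29 held 33005 of the 33058 gene identifiers, 32449 with identical GRCh38 coordinates. Rows of 1 gene were summed (47 entries), 25125 features naming no reference gene were dropped, and 21048 genes with at least 0.1 FPKM in at least 3 libraries were tested. Differences on log2(FPKM + 0.1), which understates changes of low genes, were tested with limma 3.58.1 in R 4.3.3 (lmFit, eBayes with trend) and Benjamini-Hochberg adjustment over all tested genes. The siRNAs together were fitted as 2 groups, each siRNA as part of 3 groups. The fit was tested on simulated data. Ratios were compared by exact permutation (Python 3.11.15, numpy 2.4.6). Depth was estimated from the median of FPKM times length among the lowest values of single-transcript genes, taken within a preset range as 1 read. With that step, low FPKM values were whole multiples of 1 read within 0.05 for 99.0 to 99.2% of values checked.

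The members and gene lists were chosen with earlier results of these data known. Genes named beyond the members passed the test with both siRNAs together, at most 4 per list and direction by size of change, and the 3 genes most like each of the 2 members with the largest change. Others are named as chosen after their values were seen, and 1 gene of a list is not reported here. Features without coordinates near a member could not be placed and were not counted. Alternatives were other pseudocounts, filters, scalings, eBayes without trend, a replicate block, other handling of shared rows, other thresholds and leaving out each library. Promoter windows and their motifs are from RefSeq (GRCh38.p14), and the 7SK sequence is from GENCODE 29.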

Additional observations from a re-analysis of the deposited data

Results flagged for a closer look

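The direct comparison of the siRNAs passed the test for 1 member that was higher and 4 that were lower with siCyclin K#1, where 17.1% and 12.3% of all tested genes were. Taken as siCyclin K#1 less siCyclin K#2 on the log2 scale, the difference was 1.33 for HEXIM1 (adjusted p = 0.011), where 1 siCyclin K#2 library was at 68.0 FPKM and the others at 27.6 and 26.9 FPKM. It was -0.42 for AFF4 (adjusted p = 9.0e-05), -0.27 for ELL2 (adjusted p = 0.015) and -0.23 for CCNT1 (adjusted p = 0.01). For RN7SK the fitted value was -2.22 (adjusted p = 0.035), which depends on the pseudocount and rests on 0, 4 and 0 reads against 4, 16 and 6 reads. The RN7SK call was lost in 9 refits, which is more than kept it. All adjusted p are from limma over 21048 genes. Groups of 3 libraries were not tested for single outlying libraries.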

How the results depend on the processing

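Of 676 values of members under the alternatives, 641 kept their direction and their side of the threshold. The 19 called results kept both in 350 of 359 refits, and the other 9 were all for RN7SK between the siRNAs (adjusted p 0.051 to 0.11). That RN7SK call was lost in more refits than kept it. Called results of CDK9, CCNT1, LARP7, AFF4, ELL2 and HEXIM1 were lost in 0 of the refits. AFF4 with siCyclin K#1 passed the test with median-ratio rescaling (-0.19). HEXIM1 with both siRNAs passed it without siCyclin K#2 replicate 1 or 3 (1.32 each), and RN7SK with siCyclin K#1 passed it without its replicate 2 (-1.75).

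Other signs turned only for values that had not passed the test. Without scrambled replicate 1, CCNT2 was 0.18 for both siRNAs, 0.18 for siCyclin K#1 and 0.17 for siCyclin K#2 (-0.28 in each without scrambled replicate 2), and MEPCE with siCyclin K#2 was -0.01. Between the siRNAs, CCNT2 was -0.06 with median-ratio rescaling, -0.07 with quantile normalization, -0.05 without siCyclin K#1 replicate 1 and -0.03 without siCyclin K#2 replicate 3. LARP7 between the siRNAs was 0.02 and 0.01 without siCyclin K#1 replicate 2 or siCyclin K#2 replicate 3. MEPCE with both siRNAs was -0.01 under either rescaling, and with siCyclin K#2 -0.04 and -0.07. Without siCyclin K#1 replicate 1, MEPCE was -0.02 with both, -0.05 with siCyclin K#1 and -0.06 between the siRNAs. Without siCyclin K#2 replicate 2 or 3, MEPCE with siCyclin K#2 was -0.06 or -0.04, and RN7SK with both siRNAs was -0.29 or -0.05. HEXIM1 with siCyclin K#2 was -0.01 without replicate 2. The opposite ends of these ranges were 0.14 (both), 0.27 (siCyclin K#1), 0.13 (siCyclin K#2) and 0.26 (between the siRNAs) for MEPCE, 0.50 for RN7SK with both and 0.66 for HEXIM1 with siCyclin K#2. The cause was not tested.

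Calls fell under stricter thresholds by their construction. With a fold over 3 and p under 0.01 the called genes numbered 483 for both siRNAs, 983 for siCyclin K#1, 409 for siCyclin K#2 and 322 between the siRNAs, and the members 0, 1, 0 and 1. With an adjusted p under 0.05 and a fold over 1.5 they numbered 3797, 5815, 3707 and 2769 genes, and 2, 4, 2 and 2 members. Leaving out each library gave 4248 to 6058, 8584 to 9325, 6472 to 7250 and 5162 to 6006 called genes, and 4 to 5, 5 to 6, 5 and 4 to 5 members. The log2 ratio of CCNT1 to CCNT2 ranged from -0.59 to -0.12 and that of HEXIM1 to CDK9 from 0.04 to 0.40.

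Same-numbered libraries did not deviate together (correlations -0.112 to 0.093 over 6295 genes), so no pairing by number was seen. These correlations cannot tell whether the libraries were prepared as matched sets. A fit with the replicate number as a block called 4773, 9062, 6947 and 5680 genes and 4, 5, 5 and 5 members, and ratio differences of -0.36 and 0.18.

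With 3 libraries a group, members whose libraries spread widely, such as CCNT2 and MEPCE, have intervals that leave sizeable changes in either direction, and RN7SK lies at the limit of the depth.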
